A study of Homo sapiens with 6 samples.

Results

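The junctions described here are the annotated introns of K562 cells whose ends carry none of the recognised splice-site motifs. A table of splice junctions lists, for each intron crossed by a read, its first and last base, a code for the bases at its ends and whether a gene annotation already holds it. The aligner gives a code from 1 to 6 to introns that start and end with GT-AG, GC-AG or AT-AC on either strand, and code 0 to all others. All junctions with code 0 and an annotation flag that were listed in at least 1 of 6 libraries were taken, which gave 1462 of 780566 junctions. The other annotated junctions, 241220 in number, had a canonical code and serve as the comparison.

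K562 is an established human erythroleukaemia line. The cells of 3 libraries had U2AF1 knocked in as wild type, and those of the other 3 carried U2AF1 S34F, a substitution in a zinc finger of the protein. Poly(A)-selected RNA was sequenced, and the comparison asks how the mutant changes the use of splice junctions. The labels do not say whether the libraries of a group came from separate clones or cultures, so the p-values cover only the spread between these libraries, which may be technical.

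Nearly every human intron begins with GT and ends with AG. The 5′ end of the intron, the donor, is read by the U1 particle. The 3′ end, the acceptor, is read by the U2AF pair, in which U2AF2 binds the pyrimidine tract and U2AF1 binds the AG. S34F changes which base U2AF1 prefers before that AG. A junction without these motifs can be a true intron with unusual ends, a cut made by another enzyme, or a gap between a transcript record and the reference genome that the annotation stores as an intron.

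The libraries held between 18074706 and 39279169 unique spliced reads, the deepest being S34F replicate 3. Over all junctions, replicates of a group differed by 4.70 to 14.7 times the variance that counting alone gives, so no 2 libraries were copies of each other. Positions are those of the files, in the hg19 build that the submitters' processing notes name, and they are 1-based. Genes and bases at these positions were not analysed here, so each junction is named by its position and length. All 1462 junctions carry strand code 0, and a strand is given below only where it was taken from a canonical junction that shares an end (325 of 1462).

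The noncanonical junctions fell into very unequal groups by length. There were 263 of under 21 nt, 62 of 21 to 69 nt, 649 from 70 nt to below 1000 nt and 488 of 1000 nt or more. The shortest group held 51.4% of the 95686 unique reads, of which most lay on 1 junction of 1 nt, the group from 70 nt to below 1000 nt 22.6%, and the group of 1000 nt or more 25.5%. Without that 1 junction the shortest group held 13.4% of the remaining 53728 reads, beside 40.3% and 45.3% for the groups from 70 nt and from 1000 nt up. Among canonical annotated junctions only 8 of 241220 were shorter than 21 nt.

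The shortest of them had lengths that avoid multiples of 3. Of 254 junctions under 10 nt, 106 were 2 nt long, 83 were 1 nt, 50 were 4 nt, 14 were 5 nt and 1 was 8 nt. None of the 254 had a length divisible by 3, whereas 32.5% of the members of 70 nt or more did, as did 33.4% of the canonical annotated junctions of that size. A gap whose length is not divisible by 3 shifts the reading frame if it lies in coding sequence.

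**Figure D1:**
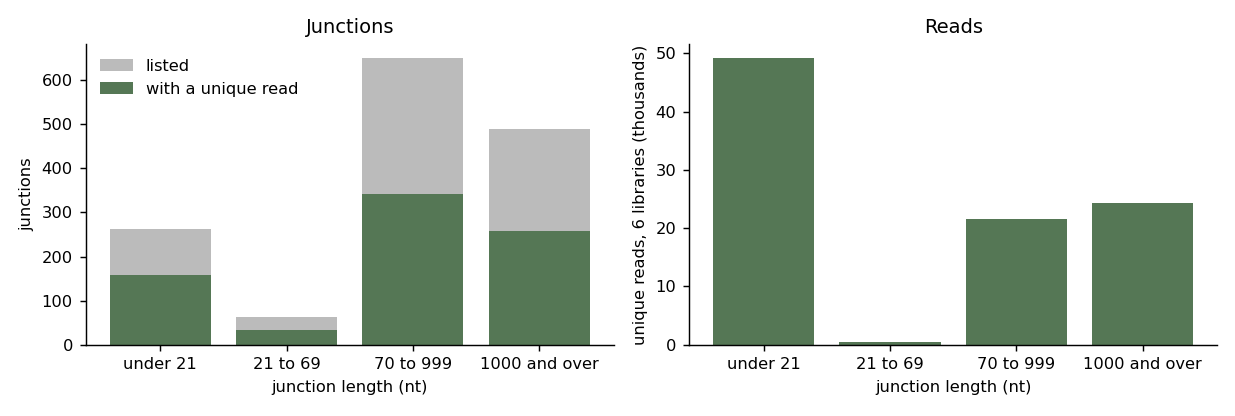
Annotated junctions without a canonical motif by length class. The left panel counts the junctions listed (grey) and those with a unique read in any library (green), and the right panel gives their unique reads summed over 6 libraries; the class under 21 nt has the most reads, 41958 of its 49144 from 1 junction, and without that junction its 7186 reads are fewer than those of either class from 70 nt up.

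Most of these junctions were rarely read. Of the 1462, 671 had only multi-mapped reads, 594 had 1 to 9 unique reads over the 6 libraries and 197 had 10 or more. In 83 cases the sum reached 100 reads. A unique read was present in all 6 libraries for 160 members (10.9%), against 56.6% of the canonical annotated junctions. Multi-mapped reads, which fit more than 1 place in the genome, made up 45.7% of the reads on noncanonical junctions and 6.78% of those on canonical annotated ones.

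The overhang, the longest stretch of a read anchored on the shorter side of the junction, also differed. Among the 197 members with at least 10 reads, 34 (17.3%) were never anchored by 15 nt or more. The same held for 0.673% of canonical annotated junctions with at least 10 reads. The clearest case was chr5:78005581-78011843, which had 552 unique reads and a largest overhang of 5 nt.

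Noncanonical junctions made up a small share of the unique spliced reads in every library, from 0.0576% to 0.0683%. The share was 0.0576%, 0.0636% and 0.0618% in wild type against 0.0609%, 0.0669% and 0.0683% in S34F. The group means were 0.0610% ± 0.0031 (SD, n = 3) and 0.0653% ± 0.0039 (SD, n = 3), and the ranges overlap. The difference of 0.0043 percentage points gave p = 0.3 in a two-sided exact permutation test (0.5 after Benjamini-Hochberg adjustment over 2 values), in a design that allows no p below 0.1. The difference was 0.0026 points without WT replicate 1, 0.0028 without S34F replicate 3 and 0.0066 without S34F replicate 1, and 0.0020 without the 5 most-read members. The widest 95% exact binomial interval of a single library, that of S34F replicate 2, runs from 0.0657% to 0.0681% and covers counting error only. Within wild type, the intervals of replicate 1 (0.0567% to 0.0586%) and replicate 2 (0.0627% to 0.0646%) do not overlap. Libraries of the same group thus differed beyond counting error.

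The number of different members seen was compared at the depth of the shallowest library. It was 271, 304 and 311 in wild type against 284, 325 and 330 in S34F, with means of 295 ± 21.2 and 313 ± 25.1 (SD, n = 3 each). The exact permutation test gave p = 0.5 (adjusted 0.5). The difference of 17.7 members ranged from 5.68 (without WT replicate 1) to 32.1 (without S34F replicate 1) with 1 library left out; it was 9.30 without S34F replicate 3, 42.2 with multi-mapped reads added and 2.72 when an overhang of 15 nt was required. For this value, too, the ranges of the groups overlap.

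A single junction took 41.2% to 48.7% of all reads on noncanonical junctions in each library. This was a gap of 1 nt at chr17:19349904, with 6031, 7163 and 5444 unique reads in wild type against 6221, 5888 and 11211 in S34F. As CPM, unique reads scaled to 1e+06 unique spliced reads per library, the level was 268 ± 27.3 in wild type and 292 ± 30.9 in S34F (SD, n = 3 each), so the groups overlap. Another 34054 reads on it were multi-mapped (44.8%). No overlapping canonical junction had a unique read. No annotated canonical splice site with at least 10 unique reads lay within 500 nt, so the gap could be compared between the genotypes only as a level. That level did not pass edgeR's quasi-likelihood test (log2 fold change 0.12, SE 0.19, adjusted p = 0.829).

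Some other 1-nt gaps could be set against the introns beside them. For each annotated junction the flanking share is its reads as a percentage of its own reads plus those of the nearest splice sites within 500 nt on either side. A junction read as often as each of 2 flanking sites has a share of 33.3%, and the median of 81000 canonical annotated junctions with 100 or more reads and both sites was 33.5% (quartiles 30.01% and 36.9%). The 1-nt gap at chr17:7470286 had shares of 40.3%, 38.7% and 37.7% in wild type against 37.4%, 40% and 37.3% in S34F. The gap at chr8:145738769 had 38.1%, 38.9% and 34.4% against 35.8%, 44.4% and 35.9%.

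A lower share was seen at chr17:61660890, with 25.4%, 23.0% and 25.1% in wild type against 20.7%, 24.2% and 23.4% in S34F. None of these 3 gaps passed edgeR's test of the flanking share between the groups (adjusted p 0.955, 0.999 and 0.869). The 1-nt gap at chr16:2059624 had 1 flanking site, so that the 33.3% does not apply, and a share of 44.2% ± 5.5 in wild type and 43.4% ± 1.1 in S34F (SD, n = 3). The 5-nt gap at chr15:102516710-102516714 also had 1 site, with 31.9% ± 3.7 and 31.4% ± 2.5 (SD, n = 3). In all 5 gaps the ranges of the genotypes overlap.

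Other short gaps were dominated by reads that fit several places. The 13-nt gap at chr16:21414647-21414659 had 398 unique and 5526 multi-mapped reads (93.3%). The 4-nt gap at chr17:20279653-20279656 had 276 unique and 637 multi-mapped reads (69.8%). Unique counts there are a small part of the reads that crossed them, and neither had a flanking site.

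Introns of 30 nt or more formed 3 groups among the members with at least 100 reads; these groups were drawn up after the values were seen and describe the data without a test. In the first were 33 members, called sole junctions below, for which every overlapping canonical junction had under 10% of their reads. Overlapping noncanonical junctions were not counted. In the second, 22 members shared 1 end with an annotated canonical junction whose other end lay within 30 nt. The member chr15:55612609-55613470 (110 reads, at most 5 on an overlapping canonical junction) met both rules and was placed in the second. The remaining 11 had an overlapping canonical junction farther away. The 17 short gaps complete the 83.

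**Figure D2:**
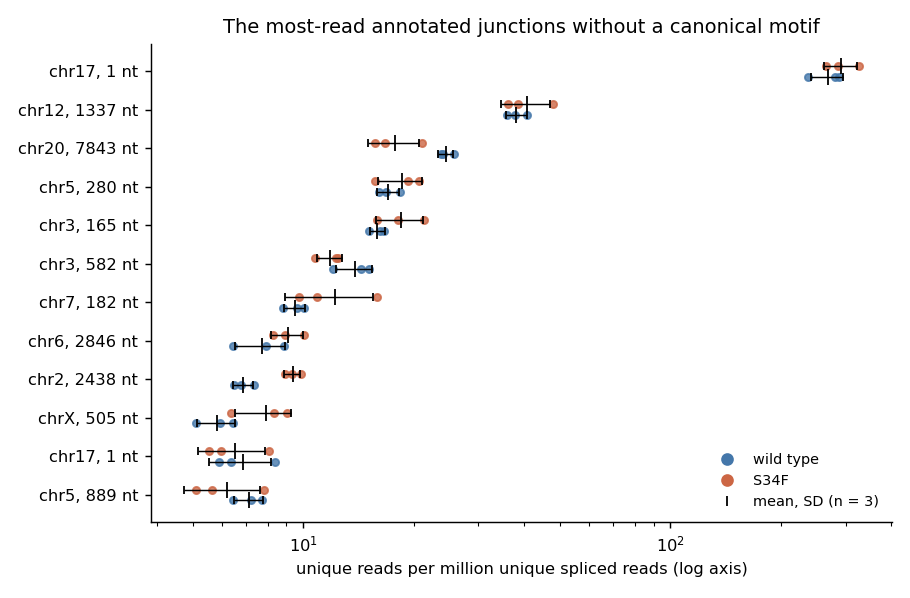
Level in CPM on a log axis for the 12 most-read members, named by chromosome and length. Points are libraries (wild type blue, S34F orange) and black marks are group means with SD (n = 3); the 1-nt gap on chromosome 17 stands apart at 237 to 326 CPM.

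The flanking shares of the sole junctions lay near those of canonical introns. Of the 33, 24 had a flanking site on both sides, and their flanking share had a median of 32.0% (range 26.5% to 51.6%), beside 33.5% for canonical annotated junctions. The share lay between 20% and 40% for 23 of the 24, and for 83.8% of the canonical junctions. These members were chosen for their own reads and for few competing reads, which favours a share near 33.3%, and the canonical junctions were not chosen for few competitors.

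The most-read of them was chr5:140039420-140039699, an intron of 280 nt. It had 467, 419 and 311 reads in wild type against 484, 284 and 759 in S34F, and the overlapping canonical junctions held at most 1 read. Its flanking share was 33.2%, 32.6% and 32.7% in wild type against 33.1%, 30.9% and 33.7% in S34F. The difference in log2 odds was 0.0015 with an SE of 0.064 (edgeR, adjusted p = 0.9996).

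The intron of 582 nt at chr3:13420481-13421062 had shares of 30.6%, 29.2% and 31.2% in wild type against 30.2%, 29.9% and 32.5% in S34F. The intron of 2846 nt at chr6:52938438-52941283 had 31.2%, 32.2% and 30.6% against 33.9%, 36.5% and 31.4%. Neither difference passed edgeR's test (adjusted p 0.918 and 0.850). In both introns the ranges of the groups overlap.

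The intron of 2438 nt at chr2:85270789-85273226 was higher in level in every S34F library than in any wild-type one, at 6.49, 7.34 and 6.76 CPM against 8.91, 9.85 and 9.34. That level did not pass edgeR's test over all annotated junctions tested (log2 fold change 0.43, SE 0.17, adjusted p = 0.287). Its flanking share was close to that of its neighbours in both groups, at 30.8% ± 1.2 and 32.6% ± 1.7 (SD, n = 3), and did not pass either (adjusted p = 0.888, edgeR). The intron of 505 nt at chrX:47428433-47428937 had flanking shares of 33.6% ± 3.1 and 34.7% ± 1.6 (SD, n = 3).

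**Figure D3:**
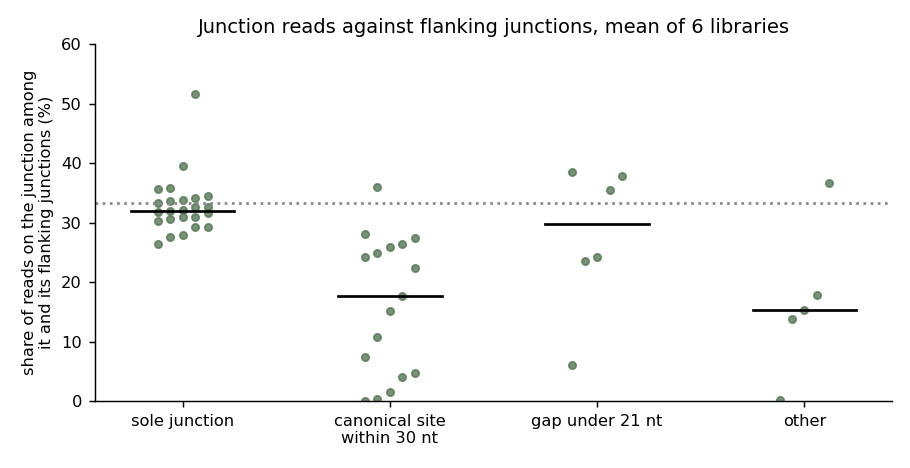
Flanking share (mean of 6 libraries) of each member with at least 100 reads and a flanking site on both sides, by group; black bars are medians and the dotted line is the 33.3% of a junction read as often as each flanking site. The 24 sole junctions cluster at the line (median 32.0%), and the 17 with a canonical site within 30 nt spread from 0.090% to 36.0%.

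Where a canonical site lay close by, the noncanonical one was most often an acceptor just upstream of it. Over all read depths, 124 members had such a partner, 92 differing in the acceptor and 32 in the donor. Of the 92 acceptors, 82 lay upstream of the canonical acceptor and 10 downstream. Among the 22 members with at least 100 reads, 19 were acceptors, and 18 of these lay upstream.

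The distance to the canonical site was divisible by 3 in 17 of these 22 and in 64 of the 124. The commonest distances over all 124 were 3 nt (18 members), 9 nt (16) and 6 nt (13). A shift of 3 nt or a multiple adds or removes whole codons where the site lies in coding sequence. The noncanonical site had more reads than its partner in 17 of the 124 and fewer in 96. Among the 22, which were chosen for their own reads, it had more in 10 and fewer in 12.

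The pair with the most reads lay on chromosome 12. The member chr12:53854928-53856264 ends 12 nt before the canonical junction that ends at 53856276, on the plus strand. It took 46.2%, 40.3% and 41.2% of the pair's reads in wild type and 40.9%, 44.6% and 46.6% in S34F. The ranges overlap, and its share among all junctions from that donor did not pass edgeR's test (difference 1.5 percentage points, adjusted p = 0.914).

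On chromosome 3, 2 noncanonical acceptors sit 3 and 6 nt upstream of the same canonical one, at 128890121 on the minus strand. The one 3 nt away, chr3:128890124-128890288, took 26.2%, 25.6% and 28.1% of its pair's reads in wild type and 30.3%, 31.3% and 29.6% in S34F. The one 6 nt away took 1.95%, 2.06% and 1.08% against 1.26%, 2.65% and 2.69%. The acceptor at 3 nt was thus preferred over the one at 6 nt in every library. Its share was higher in each S34F library than in any wild-type library, but as acceptor usage over all events it did not pass edgeR's test (log2 odds 0.26, SE 0.30, adjusted p = 0.695).

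Other members outnumbered their canonical partner in both genotypes. At chr7:100485481-100485662, 12 nt upstream, the share was 80.9%, 71.8% and 68.1% in wild type against 77.4%, 78.5% and 76.1% in S34F. At chr5:134152297-134153185 it is the donor that differs, 3 nt downstream of the canonical one, with 71.9%, 66.8% and 76.5% against 70.2%, 68.5% and 71.5%. Neither passed edgeR's test of acceptor or donor usage (adjusted p 0.742 and 0.923).

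A distance of 2 nt, which changes the frame, separated chr5:176868055-176868735 from its canonical acceptor. It took 54.2%, 48.9% and 55.8% of the pair in wild type and 61.7%, 60.2% and 57.7% in S34F. The groups do not overlap, yet the change in acceptor usage had an adjusted p of 0.613 in edgeR's test (log2 odds 0.39, SE 0.37). At the low end, chr10:73581771-73585593 took 0.851%, 1.71% and 1.90% in wild type against 0.645%, 0.426% and 0.864% in S34F beside a partner with 23614 reads; its largest overhang was 8 nt and its adjusted p was 0.0981.

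**Figure D4:**
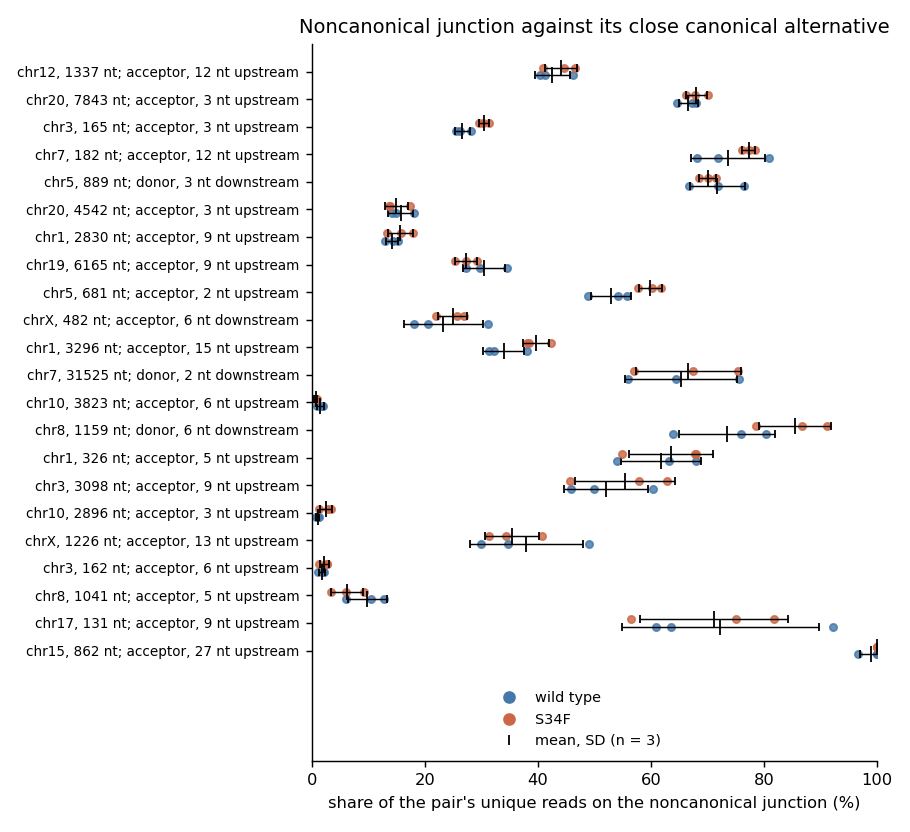
Share of reads on the noncanonical junction among it and its close canonical partner, for the 22 such members with at least 100 reads, ordered by reads and named by chromosome, length, and the place of the noncanonical site relative to the canonical one. Points are libraries and black marks are group means with SD (n = 3). Shares run from about 1% to 99% between members, and the libraries of the genotypes overlap or touch except at chr3, 165 nt and chr5, 681 nt. With 3 against 3 libraries, full separation of a single pair has an exact permutation p of 0.1. How often pairs separate over all junctions was not counted.

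The response to U2AF1 S34F was then tested in 4 ways, each fitted over all junctions that entered that test. Level and flanking share took annotated junctions with enough reads. Acceptor and donor usage took junctions with a strand and enough reads, annotated or not. The percentages of all junctions below refer to these sets. In junction level, 109 members passed the low-count filter and 0 were called at an adjusted p under 0.05 (edgeR), where 0.203% of all 113065 junctions tested were called. An unadjusted p under 0.05 was reached by 20 members (18.3%), beside 13.7% of all junctions. DESeq2 called 2 members (1.83%), beside 1.16% of all junctions. The median log2 fold change was 0.11 over these members and 0.01 over all junctions.

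Acceptor usage, the share of a junction among those from the same donor, was tested for 40 members and called for 0 at an adjusted p under 0.05 and 10 percentage points (edgeR), with 2.11% of all 51582 junctions called. An unadjusted p under 0.05 was reached by 4 members (10%), beside 19.9% of all. DESeq2 called 0 members, beside 0.291% of all junctions. Limma called 0 of all junctions, so its 0 members say nothing about the members. Donor usage, the share among junctions into the same acceptor, was tested for 20 members and called for 0 (edgeR), with 0.934% of 48299 called. Unadjusted, 3 members (15%) were under 0.05, beside 17.3% of all. DESeq2 called 0 members, beside 0.383% of all junctions, and limma again called 0 of all junctions. With so few members tested, counts of 0 lie near these backgrounds.

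The flanking share was tested for 105 members and called for 2 at an adjusted p under 0.05 (edgeR), 1 lower and 1 higher in S34F, where 0.914% of all 120452 junctions were called. Unadjusted, 14 members (13.3%) were under 0.05, beside 9.06% of all junctions. The median difference in log2 odds was 0.0050 over these members and 0.0011 over all junctions. A share of 2 in 105 is near the background.

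The member that fell was chr20:57470740-57478582, an intron of 7843 nt on the plus strand. It had 602, 599 and 500 reads in wild type against 493, 284 and 656 in S34F. Its flanking share was 18.0%, 17.3% and 18.3% in wild type against 13.0%, 13.6% and 11.2% in S34F, so the groups do not overlap. The log2 odds fell by 0.63 (SE 0.072, adjusted p = 0.000138, edgeR), and the call held in 12 of 13 alternative settings. The canonical junction from the same donor, which ends at 57478585, fell as well (log2 odds -0.71, SE 0.087, adjusted p = 0.000285, edgeR). The fall was thus not particular to the noncanonical junction.

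This intron belongs to a set of 4 junctions that join 2 donors to 2 acceptors. The upstream donor is at 57470740 and the downstream one at 57474041. A junction from 57470740 to 57473995 with 5041 reads enters an exon of 45 nt (57473996 to 57474040) that ends at the downstream donor, so the 2 junctions that join the upstream donor directly to the far acceptors skip that exon, and those from the downstream donor follow its inclusion. Both donors are joined to a noncanonical acceptor, with its intron ending at 57478582, and to a canonical one ending at 57478585, 3 nt further on.

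Which acceptor was used differed between the donors, and the ranges of the genotypes overlapped at each donor. From the upstream donor, the noncanonical acceptor took 67.3%, 67.9% and 64.7% of the reads of the 2 acceptors in wild type and 70.03%, 67.8% and 66.3% in S34F. From the downstream donor it took 18.2%, 14.8% and 14.1% in wild type against 13.7%, 13.7% and 17.3% in S34F. The group means were 66.6% ± 1.7 and 68.0% ± 1.9 for the upstream donor and 15.7% ± 2.2 and 14.9% ± 2.1 for the downstream one (SD, n = 3). The ranges of the donors lie far apart. Shares among these 2 acceptors alone were not tested between the genotypes. Acceptor usage of the member from the downstream donor differed by -0.17 percentage points (log2 odds -0.02, SE 0.34, adjusted p = 0.986, edgeR).

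Which donor was used was compared between the genotypes at each acceptor, and passed the test at the canonical one. At the noncanonical acceptor, the downstream donor, which includes the exon, took 14.7%, 12.04% and 11.03% of the reads in wild type and 23.1%, 21.3% and 31.6% in S34F. Every S34F library lay above every wild-type library, but the donor usage did not pass the test (difference 12.7 points, log2 odds 1.24, SE 0.35, adjusted p = 0.0628, edgeR). It passed without WT replicate 1 and with multi-mapped reads added (adjusted p 0.0231 and 0.0425). At the canonical acceptor the same donor took 61.6%, 62.5% and 58.1% in wild type against 81.5%, 78.2% and 81.3% in S34F. There the canonical junction passed among all junctions into that acceptor (difference 19.7 points, log2 odds 1.40, SE 0.33, adjusted p = 0.0262, edgeR). The means were higher in S34F at both acceptors, and whether the acceptors differ in this was not tested.

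The skipping junction to the noncanonical acceptor made up 40.6%, 39.6% and 40.9% of all reads from the upstream donor in wild type and 28.6%, 28.6% and 23.4% in S34F. As acceptor usage this is a difference of -13.5 points (log2 odds -0.89, SE 0.31, adjusted p = 0.0914, edgeR). The competing reads from that donor include those that enter the exon. The inclusion junction to the noncanonical acceptor, chr20:57474041-57478582, had a flanking share of 4.08% ± 0.69 in wild type and 5.47% ± 0.84 in S34F (SD, n = 3, adjusted p = 0.114, edgeR). For the inclusion junction to the canonical acceptor the flanking share rose in S34F and was called (log2 odds 0.53, SE 0.052, adjusted p = 2.43e-05, edgeR).

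**Figure D5:**
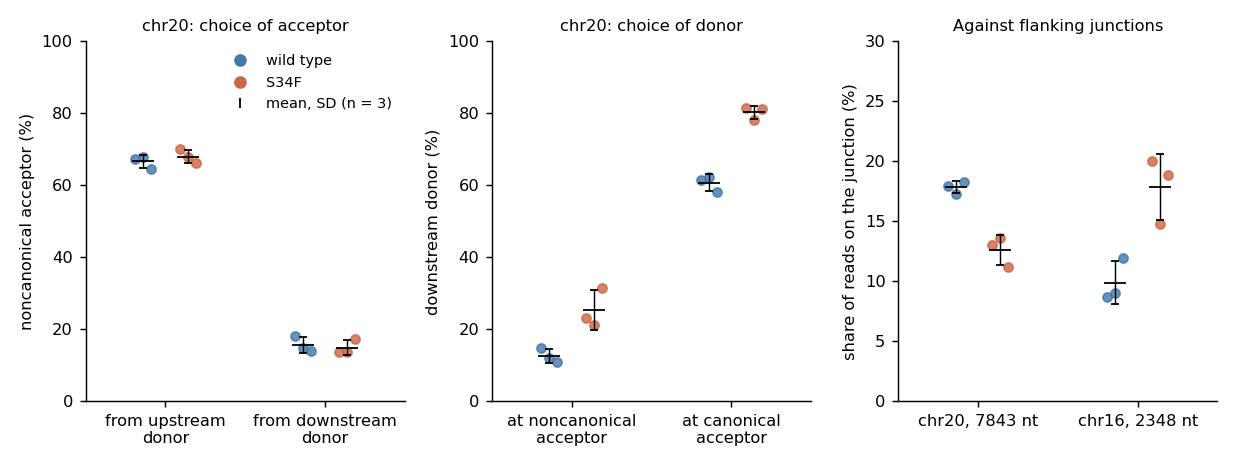
Shares of reads at the chromosome 20 locus and the flanking shares of the 2 called members, by library (wild type blue, S34F orange; black marks are means with SD, n = 3). The share of the noncanonical acceptor differs between donors and overlaps between genotypes (left), the exon-including donor is higher in S34F at both acceptors (middle), and the chromosome 20 member is lower and the chromosome 16 member higher in S34F (right).

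The member that rose was chr16:25137448-25139795, an intron of 2348 nt with 15, 19 and 19 reads in wild type against 39, 22 and 65 in S34F. Its flanking share was 8.72%, 9.05% and 11.9% in wild type against 20%, 14.8% and 18.8% in S34F. All S34F libraries lay above all wild-type ones (log2 odds 1.04, SE 0.22, adjusted p = 0.0274, edgeR). The call held in 6 of 13 alternative settings, and it was lost without WT replicate 1, WT replicate 2, S34F replicate 1 or S34F replicate 3 (adjusted p from 0.0789 to 0.202). It was also lost with DESeq2, with limma and with the replicate block (adjusted p 0.314, 0.305 and 0.0705).

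Its acceptor is shared with a canonical annotated junction whose donor lies 14130 nt further upstream, at 25123318, with 410 reads. Among the junctions into that acceptor, the noncanonical one took 15.5%, 20.2% and 21.6% in wild type against 38.2%, 32.4% and 38.9% in S34F. The groups do not overlap, but donor usage did not pass the test (difference 17.4 points, log2 odds 1.31, SE 0.41, adjusted p = 0.0885, edgeR). No sequence of the donor was read, so which bases replace GT there was not analysed here.

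The level test came closest to a call for chr18:59805532-59806215, a sole junction of 684 nt. It had 69, 73 and 63 reads in wild type against 34, 15 and 61 in S34F, with a log2 fold change of -1.21 (SE 0.25, adjusted p = 0.0736, edgeR). Its flanking share was 35.2%, 40.3% and 40.1% in wild type against 35.8%, 28.8% and 33.2% in S34F, so the ranges overlap. That share did not pass edgeR's test (log2 odds -0.32, SE 0.19, adjusted p = 0.734). A gap of 30 nt at chrX:8434362-8434391 had 3, 14 and 4 reads against 38, 10 and 82, with a log2 fold change of 2.23 (SE 0.56, adjusted p = 0.127), and 60.1% of its reads were multi-mapped. DESeq2 called both. A change in level can come from the transcript's abundance as well as from splicing, and fewer cells and less RNA per cell cannot be told apart in such libraries.

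An intron of 26 nt is of separate interest, because IRE1, the sensor of the unfolded protein response, cuts an intron of that length with noncanonical ends from XBP1 mRNA outside the spliceosome. XBP1 is on chromosome 22 in RefSeq. The tables held 1 member of 26 nt, at chr22:29192110-29192135, and whether it lies in that gene was not analysed here. It had 12, 16 and 16 reads in wild type against 10, 0 and 14 in S34F, singled out for its length after the values were seen. Its flanking share was 3.02%, 3.81% and 5.14% in wild type against 2.48%, 0% and 2.21% in S34F. Each S34F library lay below each wild-type one, and the difference did not pass edgeR's test (log2 odds -1.03, SE 0.40, adjusted p = 0.376).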

How the data were processed

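Poly(A)-selected RNA of K562 cells (3 wild-type and 3 S34F libraries) was analysed from 1 deposited junction table per library. Per the submitters' processing notes the authors used STAR and hg19; the version, annotation and filters are not given in the sources used here. The deposited values are raw counts of unique and of multi-mapped reads per junction, without normalization, and another deposited column gives the largest overhang (a length in nt). A junction was matched between tables by its position, and set to 0 where a table lacks it.

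Unique counts were used. Level, acceptor usage, donor usage and flanking share were tested with edgeR 4.0.16 (R 4.3.3, quasi-likelihood test, robust, legacy mode, TMM for level). Each fit ran over all junctions that entered that test, with Benjamini-Hochberg adjustment. The usage tests set a junction's reads against the competing or flanking reads, with an intercept per library. They needed 20 reads in every library and 10 per side in all, and flanking sites needed 10 reads. A member's strand came from junctions sharing an end or, for the flanking share only, from the strand with more flanking reads. Library values were compared by exact permutation. Alternatives used DESeq2 1.42.0, limma 3.58.1, other filters and read sets, and each library left out. The scripts were tested on simulated data.

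Members named are the 12 most-read, the 8 most-read of at least 70 nt and of under 30 nt, and those called; other names were chosen after seeing values. The members and lists were chosen with earlier results of these data known. The marker and unfolded-protein-response gene lists need gene names and were not analysed here.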

Additional observations from a re-analysis of the deposited data

How the results depend on the processing

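For the share of noncanonical reads and the number of members at equal depth, no setting could reach an exact p under 0.05, so their p-values say nothing about stability; both stayed higher in S34F under each alternative run. With multi-mapped reads added, donor usage called 2 of 41 members (0.665% of all junctions) in place of 0 of 20. Those 2 members are the 2 sides of 1 event, the choice of donor at the noncanonical chromosome 20 acceptor (adjusted p 0.0425 for both, edgeR). Flanking share called 4 of 175 (0.823% of all) in place of 2 of 105. DESeq2 called 2 members in level (1.16% of all junctions) and 1 of 105 in flanking share (0.237% of all). In flanking share limma called 0 members (13 at an unadjusted p under 0.05, or 12.4%, beside 8.40% of all) and also 0 of all 120452 junctions. Without the low-count filter, level called 7 of 791 members, and 5134 junctions in all (2.35%) in place of 229. Without the 10-point minimum, acceptor usage called 1 of 40 members, beside 2388 of all 51582 junctions. The member was chr1:165600531-165601467, at 1.12% ± 0.14 in wild type and 0.160% ± 0.15 in S34F (SD, n = 3). Leaving out 1 library at a time gave 0 to 2 members in donor usage. The 2, without WT replicate 1, were the same 2 chromosome 20 members, and 2.76% of all junctions were called in that setting. Flanking share gave 1 to 3 members, beside 0.337% (without S34F replicate 3) to 1.03% (without WT replicate 1) of all junctions. In level, 0 (without S34F replicate 3) to 608 junctions were called. The chromosome 20 call was lost only with limma (adjusted p = 0.265). Same-numbered libraries did not deviate together (r = -0.16, -0.14 and -0.04), but this cannot show whether the numbers pair them. With the replicate block, flanking share called 1 member, beside 0.741% of all junctions. The other tests called 0 members, beside 0.0442% of all junctions in level, 1.79% in acceptor usage and 0.721% in donor usage. Both library values then had an exact p of 0.25, the smallest that 3 pairs allow. Depth limits most members: 594 had 1 to 9 unique reads, and the median SE of the log2 odds was 0.51 for acceptor and 0.61 for donor usage.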

Other observations

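Several noncanonical junctions lay near each other on chromosome 16, most of them with mainly multi-mapped reads. The intron chr16:21846839-21846951 (113 nt) had 642 unique reads and 69.6% multi-mapped reads, and chr16:21848688-21848801 (114 nt) had 177 and 83.0%. Between them, chr16:21847758-21847864 had 148 unique reads and 3.27% multi-mapped reads. The 13-nt gap at chr16:21414647-21414659 and the intron chr16:21415270-21415863 (311 unique reads, 80.4% multi-mapped) lie within 2000 nt of each other elsewhere on that chromosome.

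The level of chr8:130365227-130382552, an intron of 17326 nt, varied widely within each group. It had 180, 104 and 27 reads in wild type against 5, 75 and 80 in S34F, or 7.08, 4.17 and 1.39 CPM against 0.213, 4.15 and 2.04.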
